A study of Homo sapiens with 6 samples.

Results

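The genes described here, over 6 microarrays, are 9 of the erythropoietin receptor pathway: the receptor gene EPOR, the kinase gene JAK2, the transcription factor genes STAT5A and STAT5B, the feedback genes CISH, SOCS1, SOCS2 and SOCS3, and the target kinase gene PIM1. They were selected by symbol, after levels, differences between PRMT5_down and control, and differences between replicate numbers had been seen in these same arrays. The members are therefore 9 of 18132 genes, read by 21 probe sets of the 49293 that are not controls, and their values in these contrasts are a description that supports nothing further. No probe set assigned to several genes holds 1 of the 9. By RefSeq on GRCh38.p14, EPOR lies on chromosome 19, JAK2 on 9, STAT5A, STAT5B and SOCS3 on 17, CISH on 3, SOCS1 on 16, SOCS2 on 12 and PIM1 on 6.

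The arrays hold total RNA from cells labelled NCI-H929, an established human multiple myeloma line. In the PRMT5_down group (3 arrays) the cells carried a lentivirus made to lower PRMT5, the main arginine methyltransferase that makes symmetric dimethylarginine, and in the control group (3 arrays) they carried a control lentivirus. The titles call both vectors sponges, while the protocol names a short hairpin RNA in the pLKO.1 vector and selection at 1 µg/mL puromycin. The labels give that same protocol, selection included, for all 6 arrays, and it calls the comparison cells normal. In each group the arrays are numbered 1 to 3, and the labels do not say whether a number marks a separate culture, a day or a clone, so errors measure only the spread between these arrays.

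Erythropoietin binds its receptor on red cell precursors, and the receptor then activates JAK2, a tyrosine kinase bound to its inner side. JAK2 phosphorylates the receptor and STAT5A and STAT5B, which enter the nucleus and switch on target genes. Among those targets are CISH and members of the SOCS family, whose proteins bind the receptor or JAK2 and damp the signal, and PIM1, a serine/threonine kinase that favours survival. Many other cytokine receptors use the same kinase and the same factors, and plasma cells are better known for signalling from the interleukin-6 receptor through STAT3.

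Facts of the whole series bear on these genes. PRMT5 stood at 40.6%, 61.6% and 52.5% of its control in numbers 1, 2 and 3. Even so, limma did not call it at an adjusted p under 0.05, with or without the replicate number as a block. Array medians lay between 5.29 and 5.32 log2 units, and the background, set as the 95th percentile of olfactory receptor genes, between 4.89 and 5.01. All 21 probe sets of the 9 genes were above that background on all 6 arrays, as were 56.3% of all genes. Of 9 plasma cell markers 6 were at or below background on all 6 arrays, namely IRF4, CD38, TNFRSF17, MZB1, POU2AF1 and IGKC, and 3 were above it on all 6, with mean signals of 10.43 for XBP1, 5.77 for PRDM1 and 5.23 for SDC1. By comparison 6 of 7 measured erythroid markers were above it on all 6. The erythroid transcription factor genes GATA1 and KLF1 had mean signals of 10.19 and 10.30. Several defining markers of the labelled cell type were therefore not above background in these arrays. SDC1 was close to background in PRMT5_down 1, at 4.99 against 4.94. The translocation genes NSD2 and FGFR3 of the line were above background on all 6, as were 56.3% of all genes. Of other blood cell markers, 2 of 3 measured megakaryocyte and 1 of 4 eosinophil, basophil and mast cell genes were above it on all 6, the latter PRG2.

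**Figure D1:**
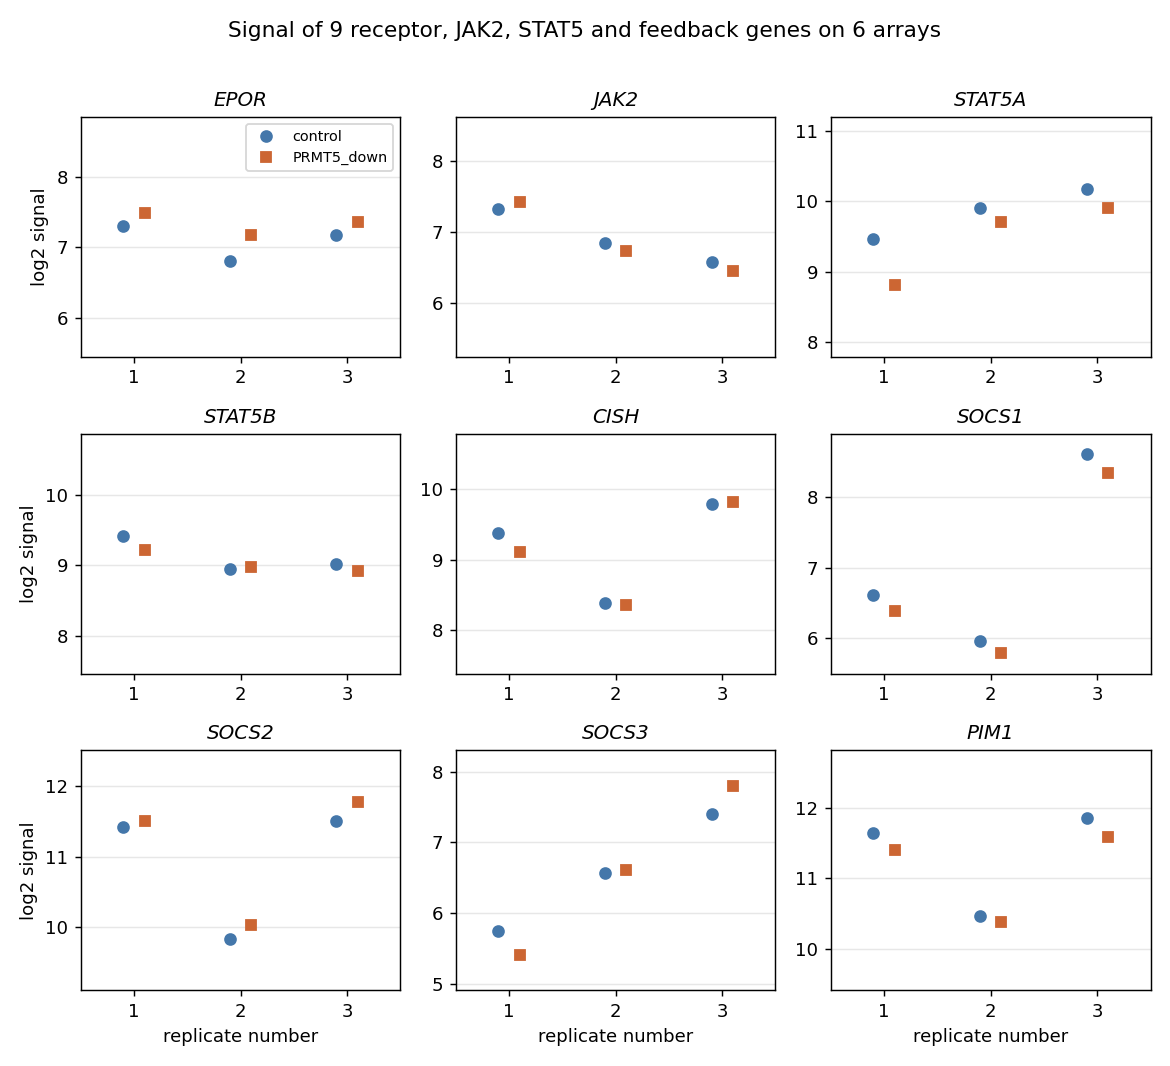
Log2 signal of each of the 9 genes (brightest probe set) against replicate number, with circles for the 3 control arrays and squares for the 3 PRMT5_down arrays; every panel spans the same height in log2 units. Both arrays of number 2 are lowest for CISH, SOCS1, SOCS2 and PIM1, and both arrays of number 3 are highest for CISH, SOCS1 and SOCS3.

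EPOR, the receptor, was a little higher in PRMT5_down within every replicate number. Its single probe set read 7.30, 6.81 and 7.18 in controls 1, 2 and 3, and 7.49, 7.18 and 7.36 in PRMT5_down 1, 2 and 3. The groups overlapped, since PRMT5_down 2 and control 3 held the same value and control 1 lay above PRMT5_down 2. The differences within numbers were 0.19, 0.37 and 0.18, with control and PRMT5_down means of 7.10 ± 0.26 and 7.34 ± 0.16 (SD, n = 3 arrays each). The mean difference was 0.25, or 1.19-fold. Its SE was 0.16 in the fit without replicate number, which holds the spread between numbers, and 0.08 with the number as a block. Over the arrays, number 2 was the lowest at -0.34 (SE 0.09) against the mean of the other numbers. Of 7 measured erythroid markers limma called 0 between the groups, with or without the replicate block. All 7 had a mean difference above 0, from 0.14 for KLF1 and GATA1 to 1.58 for AHSP, although KLF1 stood at -0.09 in number 1. Their mean signal was 8.61, 8.31 and 8.26 in controls 1, 2 and 3 and 9.18, 8.73 and 9.08 in PRMT5_down, and their summed linear signal 5488 to 6551 in controls and 6932 to 8602 in PRMT5_down. PRG2, an eosinophil granule gene that was not called either, differed by 2.07, 1.7 and 1 within numbers 1, 2 and 3, while EPX, CLC and CPA3 of the same list were at or below background on all 6 arrays. The part of either marker list in the EPOR difference was not tested. In RNA from whole cultures, a change in the share of cells of a type and a change in RNA per cell cannot be told apart.

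JAK2, the kinase that the receptor activates, differed between numbers and hardly between groups. Its brightest probe set read 7.32, 6.84 and 6.58 in controls and 7.42, 6.73 and 6.44 in PRMT5_down, in the order of numbers 1, 2 and 3. Both arrays of number 1 lay above, and both of number 3 below, the other 4. Number 1 stood 0.72 above the mean of the other numbers and number 3 stood at -0.57 (SE 0.09 each). The other probe sets of JAK2 gave wider gaps of the same sign, up to 0.93 for number 1 and down to -0.89 for number 3. Between groups the log2 difference was -0.05 (SE 0.30, or 0.09 with the block), with 0.10, -0.11 and -0.14 within numbers 1, 2 and 3. Across the 3 probe sets it lay between -0.05 and -0.0033, but signs within numbers differed. The dimmer probe sets gave -0.09 and -0.07 in number 1, and 0.13 and 0.18 in number 3.

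STAT5A was lower in PRMT5_down within every number, most in number 1. Its signal was 9.46, 9.91 and 10.17 in controls 1, 2 and 3 and 8.82, 9.71 and 9.91 in PRMT5_down 1, 2 and 3. The groups overlapped: PRMT5_down 3 equalled control 2, and control 1 lay under PRMT5_down 2 and 3. The differences within numbers were -0.64, -0.20 and -0.26. The means of 9.85 ± 0.36 and 9.48 ± 0.58 (SD, n = 3 each) differed by -0.37 (SE 0.33, or 0.10 with the block), or 1.29-fold lower. Its other probe set gave -0.36. Only 105 of the 18132 genes had a lower mean difference, but without PRMT5_down 1 the difference was -0.04. STAT5A also had its lowest level in number 1, where both arrays lay below the other 4, by -0.79 (SE 0.11) against the mean of the others. Number 1 is also where PRMT5 was furthest below its control, and a relation over 3 pairs was not tested.

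STAT5B, the close paralog of STAT5A and its neighbour on chromosome 17, gave no common direction, and its probe sets disagreed. The brightest read 9.41, 8.95 and 9.02 in controls and 9.22, 8.98 and 8.92 in PRMT5_down. Number 1 was highest there, by 0.35 (SE 0.09). The group difference was -0.09 (SE 0.16, or 0.08 with the block), with -0.19, 0.03 and -0.10 within numbers. The second probe set followed the first, at -0.06 between groups and 0.40 for number 1. The remaining pair, both dimmer, ran the other way, with number 1 lowest at -0.26 and -0.20 and group differences of 0.18 and 0.11. One of that pair, at -0.20 and 0.11, carries the suffix that Affymetrix gives to probe sets open to cross-hybridisation. The other, at -0.26 and 0.18, does not. The direction for STAT5B thus depends on the probe set, and the cause was not tested.

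CISH encodes a feedback protein that binds the activated receptor, and its promoter is known for STAT5 binding. The promoter is printed because it is rich in the STAT core letters, beside that of PIM1, whose number means had the same order but whose window holds no match. Sequences are from RefSeq on GRCh38.p14, 250 bases up to the annotated start, both read 5′ to 3′ on the gene's strand: chr3:50611775-50612024, minus strand, for CISH, and chr6:37169902-37170151, plus strand, for PIM1. Capitals mark TTCNNNGAA, the core letters to which STAT factors bind, which reads the same on both strands.
CISH: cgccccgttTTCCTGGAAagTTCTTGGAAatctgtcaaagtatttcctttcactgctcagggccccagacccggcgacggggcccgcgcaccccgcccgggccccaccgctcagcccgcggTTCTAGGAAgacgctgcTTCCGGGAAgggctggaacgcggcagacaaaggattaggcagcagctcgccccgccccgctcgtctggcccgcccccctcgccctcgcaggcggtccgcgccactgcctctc
PIM1: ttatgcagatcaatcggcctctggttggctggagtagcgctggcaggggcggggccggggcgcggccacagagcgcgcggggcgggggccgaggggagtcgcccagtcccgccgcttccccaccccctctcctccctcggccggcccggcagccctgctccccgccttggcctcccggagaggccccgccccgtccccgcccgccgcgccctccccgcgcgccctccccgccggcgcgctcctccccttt
The CISH window holds 4 matches, TTCCTGGAA, TTCTTGGAA, TTCTAGGAA and TTCCGGGAA, whose first bases lie 241, 230, 129 and 112 bases before the start. None of them overlap. Of 35116 promoter windows of this length in the table, covering 27305 genes, 6.57% hold at least 1 match, 0.356% at least 2 and 0.0142% at least 4, the last being 5 windows of 4 genes. Promoter entries were matched for 8 of the 9 genes, SOCS2 having none, and CISH was the only 1 of the 8 with a match in any of its windows. A match is a run of letters and not a measured site, and a window without it tells nothing about binding elsewhere.

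CISH signal was 9.38, 8.39 and 9.79 in controls 1, 2 and 3 and 9.11, 8.36 and 9.81 in PRMT5_down 1, 2 and 3. The 6 arrays thus fell into 3 pairs by number, with number 2 lowest and number 3 highest in both groups. Number 2 stood at -1.15 (SE 0.10) against the mean of the other numbers, 2.22-fold lower, and number 3 at 0.99. Within numbers the groups differed by -0.27, -0.03 and 0.02, for a mean of -0.09 (SE 0.48, or 0.09 with the block). CISH has a single probe set here, with the suffix for probe sets that can match several transcripts.

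SOCS2, a feedback gene better known for its control of growth hormone signalling, repeated that order. Its signal was 11.42, 9.84 and 11.51 in controls and 11.51, 10.03 and 11.78 in PRMT5_down, again by numbers 1, 2 and 3. Both arrays of number 2 lay more than 1 log2 unit under every other array, and number 2 stood at -1.62 (SE 0.09) against the others, or 3.07-fold lower. Only 14 of 18132 genes were lower in number 2 by this measure. The second SOCS2 probe set gave -1.85. Between groups SOCS2 was higher in PRMT5_down in each number, by 0.09, 0.19 and 0.27. The mean was 0.18 (SE 0.63, or 0.08 with the block), and its other probe set gave 0.15.

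PIM1, the survival kinase, was bright and followed the same order of numbers. Its brightest probe set read 11.64, 10.46 and 11.85 in controls and 11.40, 10.38 and 11.59 in PRMT5_down. Number 2 stood at -1.20 (SE 0.09), or 2.30-fold lower, and its 4 probe sets lay between -1.44 and -1.13. PIM1 was lower in PRMT5_down within each number, by -0.24, -0.08 and -0.26, a mean of -0.19 (SE 0.47, or 0.08 with the block). The same sign was found for all 4 probe sets in all 3 numbers, with means from -0.26 to -0.16. All 4 read transcripts of 1 gene in the same RNA, so they are not 4 independent measurements.

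SOCS1, whose protein blocks the JAK2 kinase domain directly, had the widest gap between numbers of the 9 genes. Its signal was 6.62, 5.96 and 8.61 in controls and 6.38, 5.79 and 8.34 in PRMT5_down. Number 3 stood 2.29 (SE 0.08) above the mean of the others, or 4.88-fold, and number 2 at -1.61. Only 3 of 18132 genes were further up in number 3. Its dimmer probe set gave 1.81. Within numbers PRMT5_down was lower by -0.24, -0.17 and -0.27, a mean of -0.23 (SE 0.90, or 0.08 with the block). The dimmer probe set, however, had -0.11, 0.04 and -0.22.

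SOCS3, the family member best known for stopping interleukin-6 receptor signalling, differed in its order. It read 5.74, 6.56 and 7.40 in controls and 5.41, 6.61 and 7.80 in PRMT5_down for numbers 1, 2 and 3. Number 1 was lowest, at -1.52 (SE 0.14) or 2.86-fold lower, and only 14 genes were further down there. Number 3 was highest, at 1.52, while number 2 lay at -0.0025. A dimmer SOCS3 probe set gave -0.61 and 0.75 for numbers 1 and 3. It lay near background in number 1, at 5.29 in control and 4.96 in PRMT5_down against backgrounds of 4.98 and 4.94. The group difference changed sign between numbers for the brighter probe set, with -0.33, 0.05 and 0.40, a mean of 0.04 (SE 0.69, or 0.13 with the block). For the dimmer it was -0.33, -0.20 and -0.08.

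**Figure D2:**
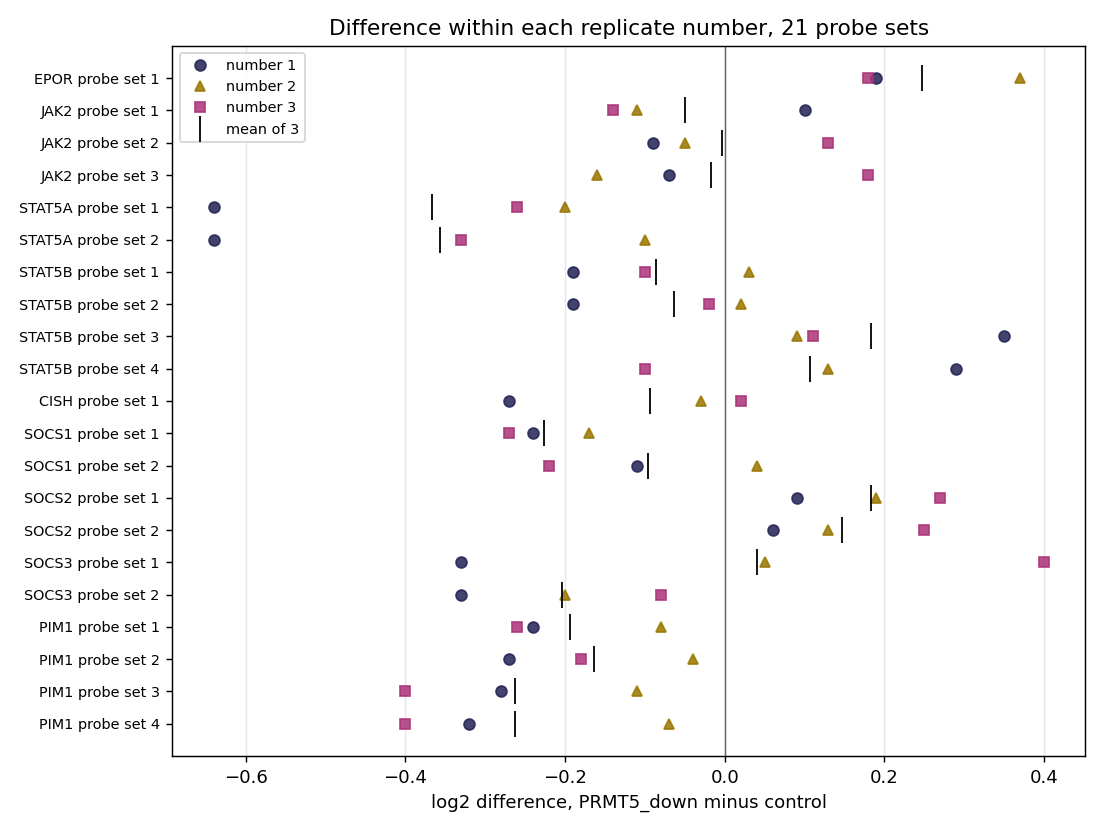
Log2 difference of PRMT5_down minus control within each replicate number (symbols) and its mean over the 3 numbers (vertical tick) for all 21 probe sets, numbered within a gene from brightest to dimmest. Both STAT5A and all 4 PIM1 probe sets lie left of 0 in every number, EPOR and both SOCS2 probe sets right of 0, and the 4 STAT5B probe sets on both sides.

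Between PRMT5_down and control, limma called 0 of the 9 genes and 0 of their 21 probe sets, against 0% of 18132 genes and 0% of 49293 probe sets called at an adjusted p under 0.05. At an unadjusted p under 0.05 limma had 149 of all genes and 0 of the 9, and 466 of all probe sets and 0 of the 21. With the replicate number as a block it again called 0 genes. At an unadjusted p under 0.05 it then had 1495 of all 18132 genes and 4 of the 9 (EPOR, STAT5A, SOCS1 and PIM1). Probe sets differed in that limma fit: unadjusted p was 0.30 for the dimmer SOCS1 probe set and 0.019 to 0.095 over the 4 of PIM1. It was 0.048 for the dimmer SOCS3 probe set. These contrasts were seen before the genes were selected, so nothing is read from the counts. PRMT5_down was above control in all 3 numbers for 2 of the 9 (EPOR and SOCS2), where 11.7% of all genes were, and below it in all 3 for 3 (STAT5A, SOCS1 and PIM1), where 15.2% were. The groups overlapped for all 9, and did not overlap for 3.92% of all genes. The median difference was -0.09 over the 9 genes and -0.02 over all genes.

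**Figure D3:**
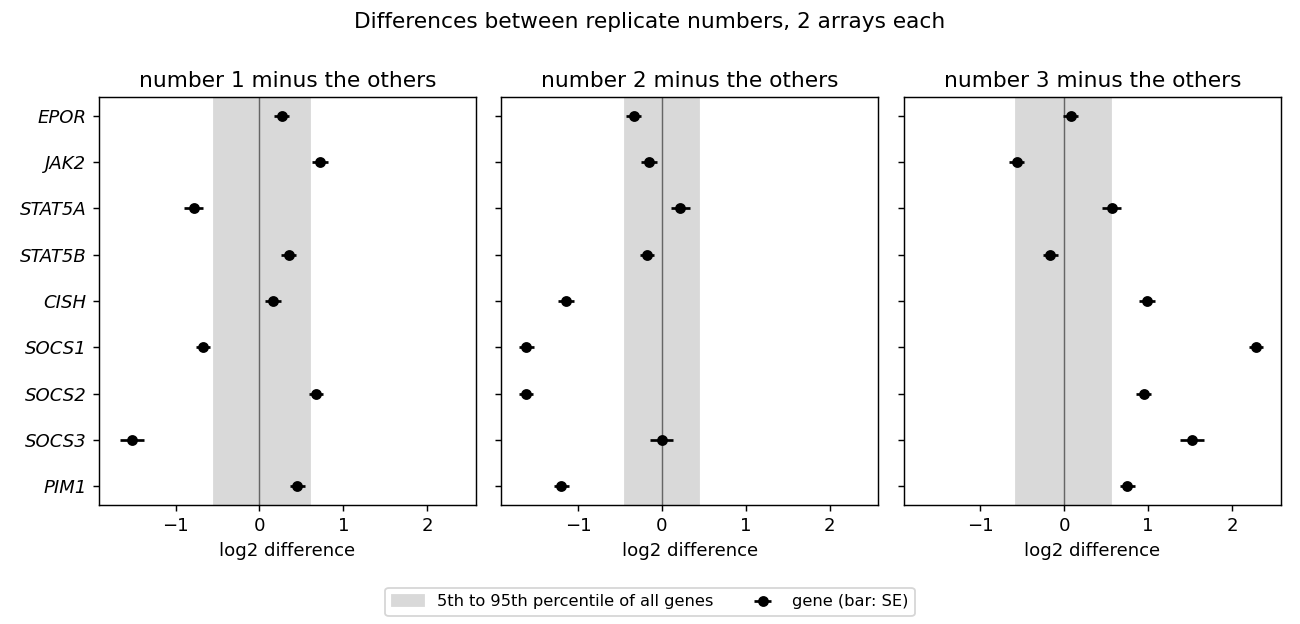
Log2 difference of each replicate number (2 arrays) from the mean of the other numbers for the 9 genes, with standard errors as bars, and the 5th to 95th percentile of all genes as a grey band. CISH, SOCS1, SOCS2 and PIM1 lie far left of the band for number 2, and SOCS3 far left for number 1; SOCS1 at 2.29 is furthest right for number 3.

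Between replicate numbers all 9 genes were called by the F test in limma, where 35.1% of all genes were called, and nothing is read from this count. With the 30% of genes of lowest signal left out, the test called 6443 of 12693. Shares below are of all genes, of which 56.3% were above background on all 6 arrays, as all 9 members were. With any 1 of the 6 arrays left out, which leaves 1 degree of freedom, the F test called 0 genes, with 5285 to 6808 at an unadjusted p under 0.05. Both arrays of number 2 lay below the other 4 for 4 genes (CISH, SOCS1, SOCS2 and PIM1), as for 10.8% of all genes. All 4 were at least 2-fold lower there, as were 0.717% of all genes. Both arrays of number 3 lay above the other 4 for CISH, SOCS1 and SOCS3 (20.8% of all genes), and SOCS1 and SOCS3 were at least 2-fold higher there (0.855% of all genes). Number 1 was above the other 4 for JAK2 and STAT5B (13.9% of all genes) and below for STAT5A and SOCS3 (18.1%), and number 3 was below for JAK2 (14.5%). For STAT5B this is the brightest probe set, and its dimmer pair had number 1 lowest, at -0.26 and -0.20. The median absolute difference over the 9 genes was 0.68, 0.34 and 0.75 for numbers 1, 2 and 3, and over all genes 0.14, 0.11 and 0.16. What a number stands for is not given, so batch, culture and day cannot be told apart.

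**Figure D4:**
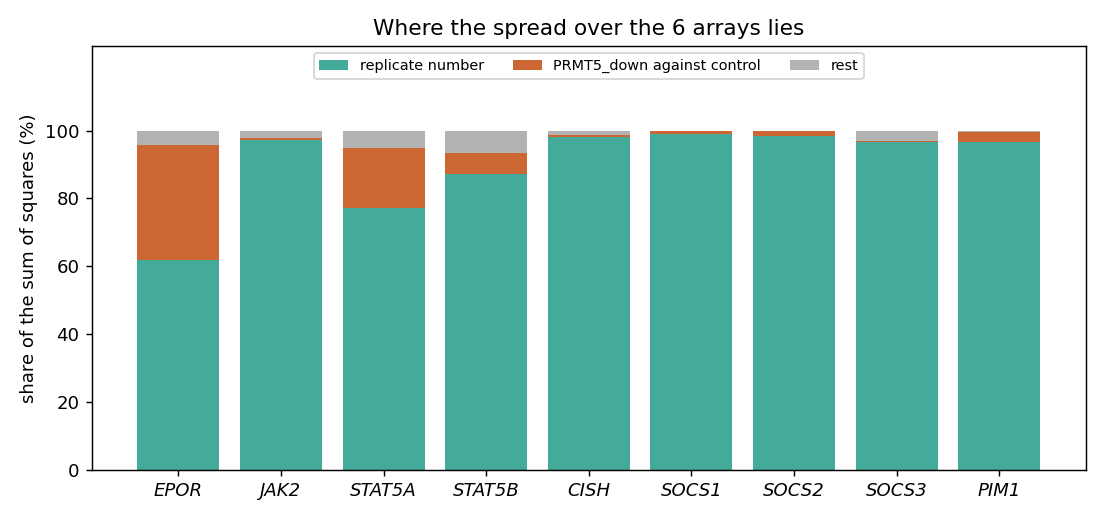
Share of the sum of squares over the 6 arrays that lies between replicate numbers, between PRMT5_down and control, and in the rest, as stacked bars in percent for the 9 genes. Number takes 62.0% for EPOR and 98.9% for SOCS1, and the group takes 33.8% and 1.04%.

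The spread of each gene was divided into shares. The replicate number held 62.0% of the sum of squares for EPOR, 77.2% for STAT5A and 87.3% for STAT5B, and between 96.8% and 98.9% for JAK2 and the 5 feedback and target genes. The group held 33.8% for EPOR and 17.8% for STAT5A, and 6.11% or less for the other 7 genes. The median share of the number was 69.0% over all genes and 82.5% over genes above background on all 6 arrays, and that of the group 7.13% and 4.91%. EPOR and STAT5A thus had the largest group shares of the 9, in opposite directions.

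Other genes of the pathway were taken from 5 lists, and limma called 0 of them in either direction between PRMT5_down and control, against the 0% of all genes. Of 18 measured cytokine receptor and ligand genes only 4 were above background on all 6 arrays, the interleukin-6 signal transducer IL6ST, the shared chain IL2RG, LEPR and CSF3R, while 12 exceeded it on no array, EPO, CSF2RB, IL6R and KIT included. Their median difference was -0.08, with 4 higher and 14 lower. The members with the smallest p were IL9R at -0.14 (SE 0.09), KIT at -0.16 (SE 0.11) and IL7R at -0.15 (SE 0.12), none of them above background on all arrays. Of 6 other JAK and STAT genes 1 was higher and 5 lower, with a median of -0.07. STAT3 differed by 0.18 (SE 0.10), JAK3 by -0.09 (SE 0.11) and STAT6 by -0.21 (SE 0.28).

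Adaptor and kinase genes at the receptor, 13 in all, had 8 higher and 5 lower and a median of 0.02. The adaptor SHC1 differed by -0.24 (SE 0.14), the docking protein gene GAB1 by 0.23 (SE 0.23) and the phosphoinositide 3-kinase subunit gene PIK3R1 by 0.14 (SE 0.14). Of 15 other brakes, 11 were higher and 4 lower, with a median of 0.10. SOCS4 differed by 0.35 (SE 0.27), the phosphatase gene PTPN1 by 0.16 (SE 0.11) and PIAS1 by 0.19 (SE 0.14). Of 10 other known STAT5 targets, 7 were higher and 3 lower, with a median of 0.04. The transferrin receptor gene TFRC, also on the erythroid list, differed by 0.53 (SE 0.31), BCL6 by 0.28 (SE 0.35) and the cyclin gene CCND3 by 0.13 (SE 0.19).

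**Figure D5:**
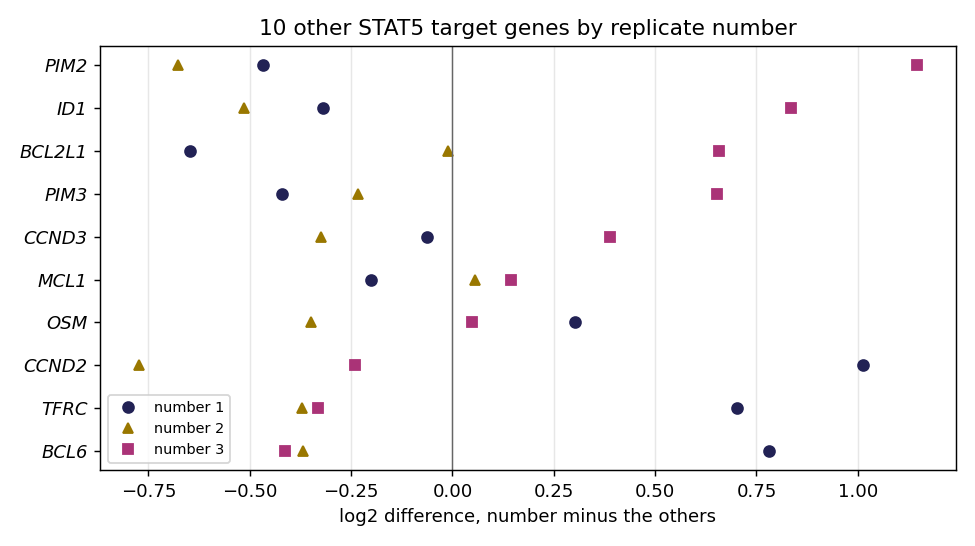
Log2 difference of each replicate number from the mean of the other numbers for 10 other STAT5 target genes, ordered by number 3. PIM2, ID1, BCL2L1, PIM3, CCND3 and MCL1 are highest in number 3, whereas CCND2, TFRC, BCL6 and OSM are highest in number 1.

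Between replicate numbers the other STAT5 targets did not share 1 order. The F test in limma called 8 of the 10, where 35.1% of all genes were called. Their median was -0.36 for number 2 and 0.27 for number 3, against -0.01 and 0.05 over all genes. PIM2, the paralog of PIM1, stood at -0.68 in number 2 and 1.15 in number 3. Its number means had the order seen for SOCS1, but in PRMT5_down number 1 was lowest (9.12, against 9.41 in number 2). ID1, an inhibitor of differentiation, had -0.52 and 0.84, and in PRMT5_down its number 1 was also lowest (9.64, against 9.79 in number 2). CCND2 was lowest in number 2, at -0.77, but highest in number 1, at 1.01, and the survival gene BCL2L1 was near 0 in number 2, at -0.01, and lowest in number 1, at -0.65. Among the other lists the test called 4 of 18 receptors and ligands, 3 of 6 JAK and STAT genes, 7 of 13 adaptors and 5 of 15 brakes. The IL2RG chain stood at -0.91 and LEPR at -1.14 in number 2. STAT3 was not called, and its 6 signals lay between 11.07 and 11.43. Erythroid markers had medians of 0.37, -0.37 and 0.03 for numbers 1, 2 and 3, and their part in the order of the feedback genes was not tested.

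Genes of the most similar pattern were ranked by Pearson's r over the 6 arrays among 10213 other genes above background on all 6. The arrays form 3 pairs by number, and between 14 genes (for EPOR) and 327 genes (for SOCS3) had an r of at least 0.95. For CISH there were 109 such genes, the nearest being PTP4A3 (0.996), GRB10 (0.995) and PLBD2 (0.994). GRB10 encodes an adaptor that binds activated receptors. SOCS2 was nearest to IKZF4 (0.997), CDCA4 (0.996) and KLHDC8B (0.992), and PIM1 to KCTD21 (0.996), SLC6A9 (0.995) and MPI (0.995). SLC6A9 encodes the glycine transporter GlyT1. SOCS1 was nearest to CDK9 (0.998), FOXA3 (0.996) and KCNK5 (0.993), and SOCS3 to LRG1 (0.998), THAP7 (0.997) and MEPCE (0.996).

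For the receptor and the upstream genes, EPOR was nearest to KIF19 (0.976), HOXB7 (0.973) and STK10 (0.972). JAK2 was nearest to SPIN3 (0.999), CHRAC1 (0.997) and RWDD2B (0.997), with 242 such genes. STAT5A was nearest to TXNDC12 (0.997), SELENOM (0.996) and EEF1D (0.996), and STAT5B to PKIB (0.993), CCDC169 (0.991) and C17orf58 (0.989). The 9 genes were not among each other's 3 nearest. Between members r ran from -0.976 (JAK2 and SOCS3) to 0.959 (CISH and PIM1), with 0.955 for SOCS2 and PIM1.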

How the data were processed

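RNA of 6 samples was read on 1 Affymetrix array each. The authors deposited 1 log2 signal for each probe set and array. The submitters' processing notes name RMA, which evens out the distributions of arrays. Which version it had is not given in the sources used here. No further normalization was applied.

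Probe sets were named through the platform annotation, with symbols updated by gene identifier, and the brightest probe set with a single symbol stood for each gene. The contrast of PRMT5_down and control was fitted with limma 3.58.1 (lmFit and eBayes in R 4.3.3, Benjamini-Hochberg over all genes, threshold 0.05), and again over all probe sets. Differences between replicate numbers used limma with group as a term and an F test. Deviations of arrays with the same number correlated at 0.82, 0.72 and 0.79, so the numbers appear to pair the arrays, a hint of the data that the labels do not state. Unless the block is named, the printed group errors are nevertheless those of the fit without it and hold the spread between numbers. For the 9 genes they were 0.16 to 0.90 without the block and 0.08 to 0.13 with it. Alternatives were other scalings, filters, probe set rules and variance models, the replicate block, and each array left out. The fits were tested on simulated data. For the group fit these data held no spread between replicate numbers, so that test does not cover the spread found here. The smallest exact two-sided permutation p for 3 arrays against 3 is 0.1.

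The 9 genes and all lists were chosen with earlier results of these data known. Named genes were every member, the 3 genes with the smallest p of each pathway list, and the 3 genes most similar to each member; other genes named were chosen after their values were seen.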

Additional observations from a re-analysis of the deposited data

How the results depend on the processing

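With 3 arrays a group and 2 a replicate number, the number of arrays limits the precision of every difference. Genes called between PRMT5_down and control numbered 0 under all settings run, with the replicate block included, and probe sets 0 with and without the replicate block. The F test between numbers called 6362 genes, 5485 to 6594 under other settings, and 0 with any 1 of the 6 arrays left out, where 1 degree of freedom remained and 5285 to 6808 genes had an unadjusted p under 0.05. For EPOR and STAT5A the direction held under every setting run, from 0.10 to 0.35 and from -0.58 to -0.04. It turned for STAT5B (0.035) and SOCS3 (-0.082) with the mean of probe sets, for SOCS2 (-0.040) and BCL6 (-0.073) with array weights, and for STAT5B in number 3 (0.0081) with the mean of probe sets; the cause was not tested. With 1 array left out its number stands on 1 side only. Differences then ranged from -0.33 to 0.16 for JAK2 (turned without control 1, PRMT5_down 2 or 3), -0.18 to 0.055 for STAT5B (control 1), -0.49 to 0.27 for CISH (control 1 or 3, PRMT5_down 2), -0.98 to 0.55 for SOCS1 (control 3, PRMT5_down 1 or 2), -0.36 to 0.72 for SOCS2 (control 2, PRMT5_down 1 or 3), -0.56 to 0.64 for SOCS3 (control 1, PRMT5_down 3) and -0.62 to 0.18 for PIM1 (control 3, PRMT5_down 2). They ranged from -0.15 to 0.0033 for JAK3, -0.40 to 0.053 for STAT6 and -0.0017 to 0.56 for BCL6 (control 3 each), and -0.023 to 0.32 for CCND3 (control 2). SOCS3 in number 2 ranged from -0.14 to 0.14 (control 1 or 2, PRMT5_down 3). Every other difference between numbers of the 9 genes kept its sign under the settings run. Single dimmer probe sets were not among those settings, and the dimmer pair of STAT5B had number 1 at -0.26 and -0.20. Settings for differences between numbers and for genes outside the 9 were added after the data were seen.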
